A study of Mus musculus with 12 samples.

Results

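Glycolysis and the response to low oxygen were followed through 34 genes in the transcriptomes of mouse bone marrow-derived macrophages (BMDMs). The genes were chosen by symbol and cover glucose uptake, each step from glucose to lactate, the kinases that hold back pyruvate dehydrogenase, and the hypoxia-inducible factor HIF1 with its regulators and some of its targets. They are 34 of the 55335 genes listed. All 34 had at least 1 FPKM (fragments scaled to transcript length and library size) in at least 3 libraries, as had 12622 genes altogether. A second row named Aldoa never went above 0.692 FPKM and was left out.

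The 12 libraries fall into 4 groups of 3. Wild-type C57BL/6 BMDMs and BMDMs of Nlrp3-/- mice, which lack the sensor of the NLRP3 inflammasome in all cells, were each sequenced untreated and after LPS+ATP, the pair of signals that primes and then triggers this inflammasome. Per the labels, LPS acted for 4 hours and ATP for a further 30 min, while the study's methods for its BMDM cultures give 12 hours and 2 hours. Marrow was from mice aged 8 weeks and was kept with macrophage colony-stimulating factor for 7 days, and the wild-type and Nlrp3-/- mice came from different suppliers. Neither LPS nor ATP was given alone, so their parts in a difference cannot be told apart. No source says that the libraries of a group came from separate mice or cultures, so p-values measure only the spread between these libraries, which may be technical.

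Glycolysis turns glucose into pyruvate in the cytosol. Lactate dehydrogenase then makes lactate, or pyruvate enters mitochondria through pyruvate dehydrogenase. Macrophages given LPS are known to raise glycolysis and lactate output. HIF1 is a pair of proteins whose alpha subunit, encoded by Hif1a, is hydroxylated by prolyl hydroxylases when oxygen is present and then degraded. When it is stable, as in hypoxia and in LPS-treated macrophages, HIF1 binds the core letters ACGTG or GCGTG in DNA and raises genes of glucose uptake, glycolysis and lactate export.

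These letters are shown in the promoters of the 3 members with the largest rises and the 2 with the deepest falls in wild-type BMDMs, so that both ends of the response described next can be read. Slc2a6, Egln3 and Slc2a1 rose with LPS+ATP, and Ldhb and Aldoc fell. Aldoc has 2 listed promoter windows, and the more upstream one is shown. The 250 bases before the listed transcription start were read from RefSeq (GRCm38.p6), 5′ to 3′ on the strand of the gene. Capitals mark ACGTG or GCGTG on either strand, so CACGT and CACGC are the same letters on the opposite strand. The stretches lie at chr2:27027999-27028248 (minus strand) for Slc2a6, chr12:54203875-54204124 (minus) for Egln3, chr4:119108495-119108744 (plus) for Slc2a1, chr6:142507958-142508207 (minus) for Ldhb and chr11:78322823-78323072 (plus) for Aldoc.
Slc2a6: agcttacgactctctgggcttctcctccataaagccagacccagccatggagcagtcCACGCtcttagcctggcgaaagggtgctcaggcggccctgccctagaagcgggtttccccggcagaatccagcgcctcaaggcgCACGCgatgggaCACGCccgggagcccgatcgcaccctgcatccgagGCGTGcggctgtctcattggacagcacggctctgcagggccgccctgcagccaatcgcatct
Egln3: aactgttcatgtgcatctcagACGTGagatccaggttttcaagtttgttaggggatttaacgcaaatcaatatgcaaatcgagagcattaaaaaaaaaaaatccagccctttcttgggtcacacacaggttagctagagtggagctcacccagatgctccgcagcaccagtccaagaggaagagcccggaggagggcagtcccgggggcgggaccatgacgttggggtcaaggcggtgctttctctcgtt
Slc2a1: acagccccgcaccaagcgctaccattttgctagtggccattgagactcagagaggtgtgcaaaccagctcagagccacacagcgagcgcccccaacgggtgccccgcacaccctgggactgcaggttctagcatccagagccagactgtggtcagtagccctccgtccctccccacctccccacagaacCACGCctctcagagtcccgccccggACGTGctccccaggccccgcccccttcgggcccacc
Ldhb: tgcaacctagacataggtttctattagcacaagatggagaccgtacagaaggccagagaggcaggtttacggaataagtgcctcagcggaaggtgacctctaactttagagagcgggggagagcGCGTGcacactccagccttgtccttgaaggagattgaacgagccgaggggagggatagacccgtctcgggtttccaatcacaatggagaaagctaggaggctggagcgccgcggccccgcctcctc
Aldoc: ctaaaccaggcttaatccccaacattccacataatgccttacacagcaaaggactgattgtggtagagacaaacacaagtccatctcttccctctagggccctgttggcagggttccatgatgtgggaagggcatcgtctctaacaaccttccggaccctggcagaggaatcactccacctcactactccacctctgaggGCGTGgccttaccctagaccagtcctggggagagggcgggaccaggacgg

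The Slc2a6 stretch, that of the member with the largest rise, held 4 GCGTG and no ACGTG. Egln3 held 1 ACGTG, beginning 229 bases before the start, and Slc2a1 held 1 ACGTG at 36 bases and 1 GCGTG. The stretches of Ldhb and Aldoc, which fell, held 1 GCGTG each and no ACGTG, and Aldoc had 1 ACGTG beginning 27 bases after the start, beyond the bases shown. Matches thus stood in front of members that rose and of members that fell. Promoter windows of 250 bases before to 50 after the start were listed for 33 of the 34 members, and the exception was Ndrg1. ACGTG on either strand was in a window of 23 of 33 members (69.7%) and of 21.8% of 27025 genes. With GCGTG added, the shares were 90.9% and 46.7%. A gene counted if any of its windows matched, and some genes have several. Per window, ACGTG was in 55.3% of 47 member windows and 19.6% of all 32851, or 80.9% and 43.8% with GCGTG added. Both letters contain the pair CG, and the median window held 20 CG pairs in members and 7 in all genes. The part of CG content in these shares was not tested, and a match is no evidence of binding.

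The targeted gene matched the labels. Nlrp3 was at 9.24 to 10.1 FPKM in the wild-type controls, at 32.1 to 33.6 FPKM in the wild-type LPS+ATP libraries and at 0 in all 6 Nlrp3-/- libraries. The genotypes differed in sex, since Xist was at 32.8 to 56.3 FPKM in Nlrp3-/- libraries and at most 0.0416 FPKM in wild-type libraries, and 4 Y-linked genes were at 0 in all Nlrp3-/- libraries. Genotype, sex and supplier cannot be told apart. All 8 macrophage markers were above 1 FPKM in every library, with sums of 10700 to 21100 FPKM. Fibroblast markers summed to 163 to 194 FPKM in wild-type and 928 to 1210 FPKM in Nlrp3-/- libraries, and all 8 were higher in Nlrp3-/- libraries in both states. Neutrophil markers summed to 343 to 380 FPKM in wild-type controls, 329 to 343 FPKM in wild-type LPS+ATP libraries, 1840 to 1880 FPKM in Nlrp3-/- controls and 705 to 714 FPKM in Nlrp3-/- LPS+ATP libraries. Lymphocyte, erythroid and dendritic cell lists summed to at most 5.62, 13.2 and 1.09 FPKM, and the 6 cell cycle genes to 54.7 to 66.8 FPKM in controls and 21.4 to 32.5 FPKM with LPS+ATP. The 10 LPS-induced genes summed to 24.9 to 26.5 FPKM in wild-type and 48.9 to 50.3 FPKM in Nlrp3-/- controls. With LPS+ATP they summed to 10200 FPKM in wild-type and 7020 to 7040 FPKM in Nlrp3-/- libraries. Read counts were not given, and relative depth read from the lowest values ran from 1.0 to 1.218. Libraries of a group correlated at 0.990 to 0.993 across genes.

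Stimulation was read as the difference between LPS+ATP and control libraries of log2(FPKM + 1), where the change of a low gene comes out too small. A gene passed the test at an adjusted p (limma, Benjamini-Hochberg over 12622 genes) under 0.05 and was called a DEG when the log2 fold change was also at least 1 in either direction. In wild-type BMDMs, 28 of the 34 members rose and 6 fell, against 23.3% and 53.1% of all tested genes. The DEGs were 12 higher and 2 lower members, against 8.25% and 11.2% of all tested genes. In Nlrp3-/- BMDMs, 26 members rose and 5 fell, against 20.6% and 53.8% of all genes. Here 7 higher and 2 lower members were DEGs, against 6.64% and 8.21%. The median member was at 0.68 in wild-type and 0.36 in Nlrp3-/- BMDMs, and the median of all tested genes was at -0.26 and -0.24. Together the members made up 0.774 to 0.809% of all FPKM in wild-type controls, 0.909 to 0.928% in Nlrp3-/- controls and 1.35 to 1.41% in the stimulated libraries of either genotype.

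The 31 members that passed in both genotypes did so in the same direction, 26 up and 5 down. The share of all tested genes that did so was not counted. Dividing each library by its median ratio to the others shifted the all-gene median by 0.24 (wild-type) and 0.23 (Nlrp3-/-). Under this scaling 28 members rose and 5 fell in wild-type BMDMs, with 17 and 2 DEGs, against 34.9% and 36.3% of all genes called. Of the Nlrp3-/- values, 29 rose and 2 fell, with 12 and 2 DEGs, against 32.9% and 32.6%. No member changed sign in either genotype.

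**Figure D1:**
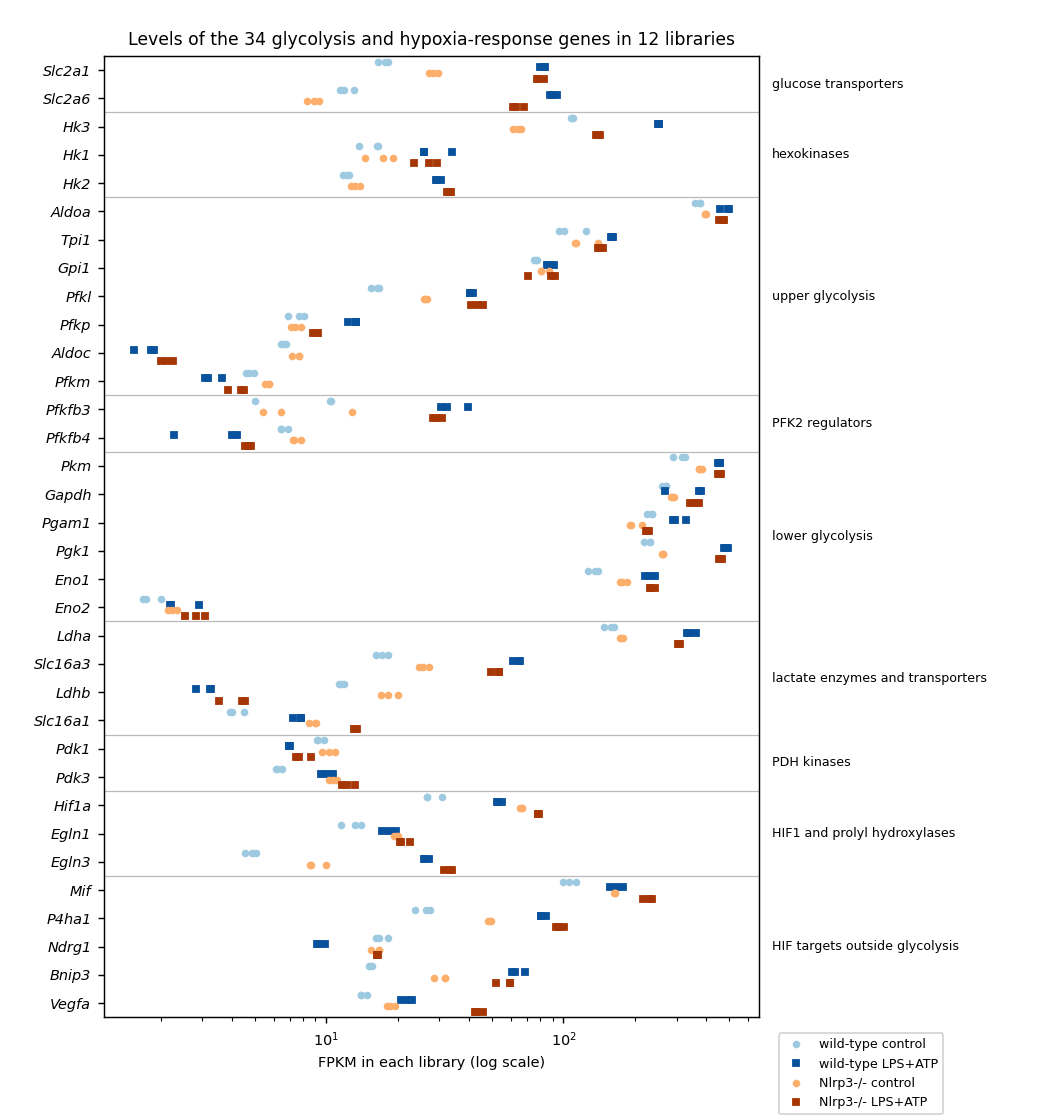
FPKM (log scale) of the 34 genes in each of the 12 libraries, grouped by role, with circles for control and squares for LPS+ATP libraries, light and dark blue for wild-type, orange and brown for Nlrp3-/-. In most rows the squares lie to the right of the circles, while Aldoc, Pfkm, Pfkfb4, Ldhb and Pdk1 show the opposite order in both genotypes.

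**Figure D2:**
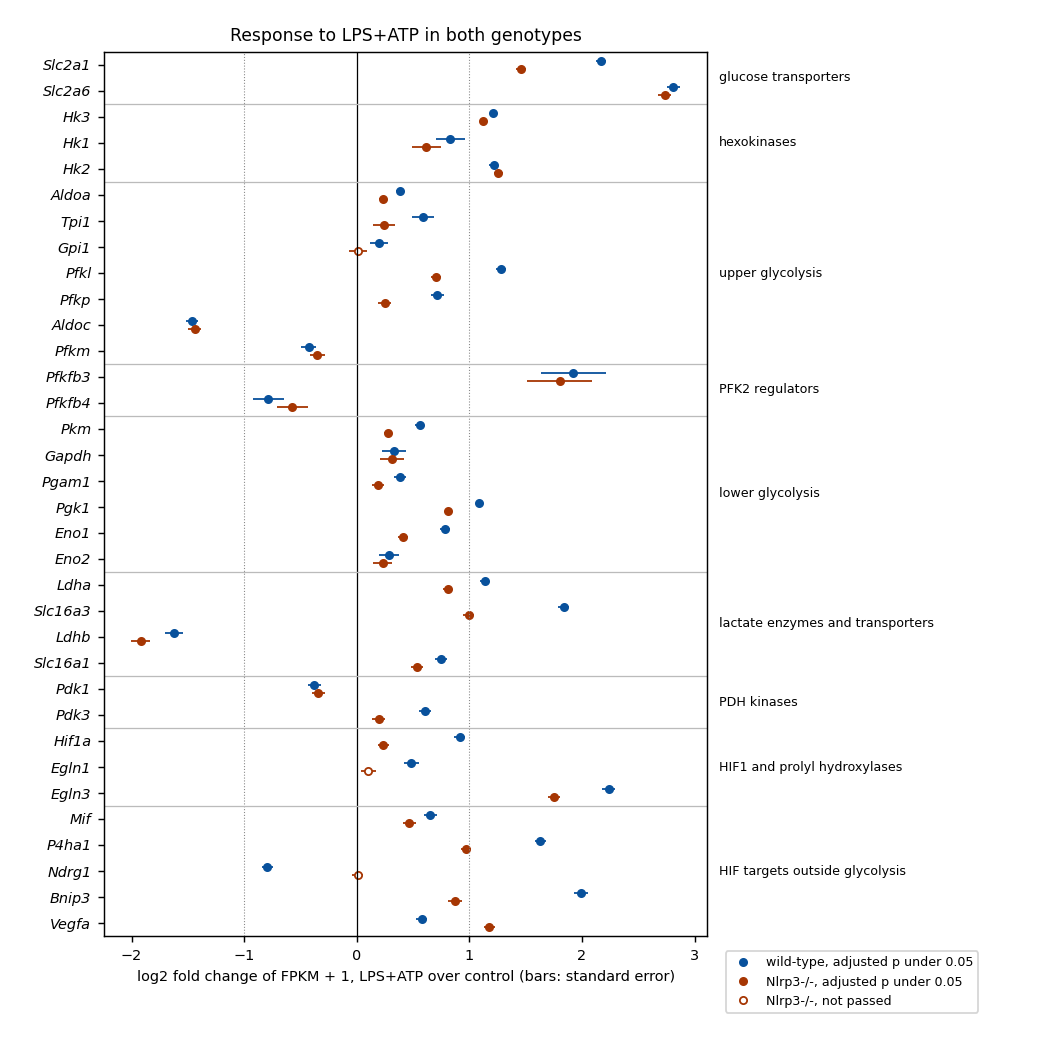
log2 fold changes of FPKM + 1 for LPS+ATP over control in wild-type (blue) and Nlrp3-/- (brown) BMDMs, with standard errors as bars, filled points for adjusted p under 0.05 and dotted lines at -1 and 1. Slc2a6 stands farthest to the right in both genotypes, at 2.81 and 2.73, and Ldhb farthest to the left, at -1.62 and -1.92.

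Both glucose transporters rose severalfold. Slc2a1 encodes GLUT1, the main glucose carrier of most cells. It stood at 16.5, 18.1 and 17.6 FPKM in the wild-type controls and 83.5, 79.3 and 82.5 FPKM with LPS+ATP. Slc2a1 was at 27.2, 29.6 and 28.1 FPKM in the Nlrp3-/- controls and 82.5, 77.4 and 78.4 FPKM with LPS+ATP. As deposited, the stimulated libraries of both genotypes overlapped, while the Nlrp3-/- controls lay above the wild-type controls. After median-ratio scaling Slc2a1 was lower in Nlrp3-/- than in wild-type stimulated libraries, at -0.26 and past the test. The log2 fold change was 2.17 (SE 0.0445, adjusted p = 2.9e-12) in wild-type and 1.46 (SE 0.0445, adjusted p = 1.12e-10) in Nlrp3-/- BMDMs. Slc2a6 encodes GLUT6, another member of this carrier family. It stood at 11.4, 13.0 and 11.9 FPKM in the wild-type controls and 94.1, 90.0 and 88.1 FPKM with LPS+ATP. The Nlrp3-/- libraries gave 8.89, 8.27 and 9.29 FPKM in the Nlrp3-/- controls and 61.5, 68.5 and 63.1 FPKM with LPS+ATP. Slc2a6 had the largest rise of the 34 members in both genotypes, at 2.81 (SE 0.0585, adjusted p = 3.25e-12) and 2.73 (SE 0.0585, adjusted p = 5.27e-12). Its Nlrp3-/- libraries lay below the wild-type libraries in both states, the opposite of Slc2a1 in the controls.

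Hexokinases trap glucose in the cell by phosphorylation, and all 3 members rose in both genotypes. Hk3, the myeloid form, was the most abundant, at 108, 108 and 110 FPKM in the wild-type controls and 253, 251 and 253 FPKM with LPS+ATP. The Nlrp3-/- libraries held 65.9, 64.5 and 61.4 FPKM in the Nlrp3-/- controls and 138, 142 and 139.8 FPKM with LPS+ATP. None of the Nlrp3-/- libraries reached the wild-type libraries of the same state, and the rises were 1.21 (SE 0.0285, adjusted p = 9.06e-12) and 1.12 (SE 0.0285, adjusted p = 2.28e-11). Hk2, the inducible form, stood at 11.8, 12.4 and 12.2 FPKM in the wild-type controls and 28.9, 29.2 and 30.4 FPKM with LPS+ATP. Hk2 was at 13.2, 12.7 and 13.8 FPKM in the Nlrp3-/- controls and 32.9, 32.4 and 33.6 FPKM with LPS+ATP. Its fold changes were 1.22 (SE 0.039, adjusted p = 1.27e-10) and 1.25 (SE 0.039, adjusted p = 1.32e-10). Hk1, the form found in most tissues, was spread more widely, at 16.4, 13.8 and 16.6 FPKM in the wild-type controls and 33.95, 25.9 and 25.9 FPKM with LPS+ATP. It rose by 0.83 (SE 0.128, adjusted p = 0.00011) in wild-type and 0.62 (SE 0.128, adjusted p = 0.00111) in Nlrp3-/- BMDMs. The difference between genotypes in the response of Hk2 was 0.04 (SE 0.0552, adjusted p = 0.656) and of Hk3 -0.09 (SE 0.0403, adjusted p = 0.128), neither past the test.

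Upper glycolysis splits the sugar into triose phosphates, and its enzymes moved in both directions. Of the 7 members, 5 rose and 2 fell in wild-type BMDMs, and 4 rose and 2 fell in Nlrp3-/- BMDMs. Phosphofructokinase, the committing enzyme, has 3 forms. Pfkl, the liver form, stood at 15.4, 16.6 and 16.4 FPKM in the wild-type controls and 41.4, 40.3 and 40.5 FPKM with LPS+ATP. Pfkl was at 26.5, 25.9 and 26.1 FPKM in the Nlrp3-/- controls and 40.6, 45.6 and 43.4 FPKM with LPS+ATP. It rose by 1.28 (SE 0.0431, adjusted p = 1.9e-10) and 0.70 (SE 0.0431, adjusted p = 5.39e-08). Its stimulated libraries overlapped between genotypes as deposited. After median-ratio scaling the Nlrp3-/- level with LPS+ATP was lower, at -0.13 and past the test. Pfkp, the platelet form, stood at 6.88, 8.06 and 7.64 FPKM in the wild-type controls and 12.3, 13.3 and 13.3 FPKM with LPS+ATP. The Nlrp3-/- libraries held 7.11, 7.86 and 7.36 FPKM in the Nlrp3-/- controls and 9.10, 9.20 and 8.78 FPKM with LPS+ATP. Pfkp rose in both genotypes, by 0.72 (SE 0.0572, adjusted p = 4.2e-07) and 0.25 (SE 0.0572, adjusted p = 0.00221), and its exons overlap those of Pitrm1 on the opposite strand, which averaged 13.4 FPKM. Pfkm, the muscle form, fell from 4.76 ± 0.176 FPKM to 3.29 ± 0.31 FPKM (SD, n = 3) in wild-type and from 5.65 ± 0.134 FPKM to 4.23 ± 0.348 FPKM in Nlrp3-/- BMDMs. The fall in Nlrp3-/- BMDMs, -0.35 (SE 0.0638, adjusted p = 0.000447), was not past the test after median-ratio scaling, at -0.10. The exons of Pfkm overlap those of Gm26513 on the same strand and Senp1 on the opposite strand. Together these overlapping genes averaged 2.56 FPKM, beside 4.48 FPKM of Pfkm.

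Aldolase cleaves the sugar, and its forms moved apart. Aldoa, the form of most tissues, stood at 358, 376 and 375 FPKM in the wild-type controls and 492, 501 and 456 FPKM with LPS+ATP. Aldoa was at 394, 398 and 397 FPKM in the Nlrp3-/- controls and 477, 452 and 472 FPKM with LPS+ATP. It rose by 0.38 (SE 0.0371, adjusted p = 2.26e-06) and 0.24 (SE 0.0371, adjusted p = 0.000148). Aldoc, known from brain, stood at 6.75, 6.48 and 6.45 FPKM in the wild-type controls and 1.88, 1.54 and 1.82 FPKM with LPS+ATP. Aldoc was at 7.66, 7.64 and 7.14 FPKM in the Nlrp3-/- controls and 2.01, 2.25 and 2.12 FPKM with LPS+ATP. Every stimulated library lay below every control, with fold changes of -1.46 (SE 0.057, adjusted p = 7.21e-10) and -1.44 (SE 0.057, adjusted p = 1.15e-09). Gpi1, which isomerises glucose phosphate, averaged 76.5 ± 1.14 FPKM in wild-type controls and 87.7 ± 3.05 FPKM with LPS+ATP. Its rise in wild-type BMDMs, 0.19 (SE 0.0799, adjusted p = 0.0453), was not past the test when any 1 wild-type library was left out, with adjusted p from 0.0608 to 0.127. Gpi1 was at 80.6, 87.1 and 80.2 FPKM in the Nlrp3-/- controls and 92.0, 88.6 and 70.8 FPKM with LPS+ATP, and the change was 0.01 (SE 0.0799, adjusted p = 0.896). Without the third stimulated library the change was 0.13 (adjusted p = 0.026). Tpi1, which interconverts the trioses, stood at 95.9, 100.4 and 124 FPKM in the wild-type controls and 158, 162 and 161 FPKM with LPS+ATP. The third control library was the highest of its group in both genotypes, and the exons of Tpi1 overlap those of Spsb2 on the opposite strand, which averaged 11.7 FPKM. It rose by 0.59 (SE 0.0983, adjusted p = 0.000203) and 0.24 (SE 0.0983, adjusted p = 0.0436), and the rise in Nlrp3-/- BMDMs missed the test without Nlrp3-/- control replicate 1 (0.19, adjusted p = 0.144) and without 7 other libraries taken out singly.

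Pfkfb3 and Pfkfb4 make and break the small sugar bisphosphate that switches phosphofructokinase on, and they moved in opposite directions. Pfkfb3 stood at 10.3, 5.003 and 10.4 FPKM in the wild-type controls and 32.2, 30.4 and 39.6 FPKM with LPS+ATP. Pfkfb3 was at 5.42, 6.41 and 12.8 FPKM in the Nlrp3-/- controls and 28.3, 30.6 and 29.0 FPKM with LPS+ATP. The second wild-type control and the third Nlrp3-/- control stood away from the others of their groups, but all stimulated libraries lay above all controls. The rises were 1.92 (SE 0.29, adjusted p = 9.36e-05) and 1.80 (SE 0.29, adjusted p = 0.000176). Pfkfb4 stood at 6.93, 6.46 and 6.43 FPKM in the wild-type controls and 4.00, 4.22 and 2.27 FPKM with LPS+ATP. Pfkfb4 was at 7.85, 7.22 and 7.33 FPKM in the Nlrp3-/- controls and 4.54, 4.82 and 4.72 FPKM with LPS+ATP. Each stimulated library lay below the controls, and the falls were -0.79 (SE 0.139, adjusted p = 0.000313) and -0.57 (SE 0.139, adjusted p = 0.00311). The fall in Nlrp3-/- BMDMs was -0.31 and not past the test after median-ratio scaling.

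The 6 enzymes of lower glycolysis, which harvest ATP on the way to pyruvate, all rose in both genotypes, by 0.29 to 1.09 in wild-type and 0.19 to 0.81 in Nlrp3-/- BMDMs. Pgk1, a kinase that makes ATP, rose most. It stood at 218, 232 and 232 FPKM in the wild-type controls and 477, 492 and 485 FPKM with LPS+ATP. Pgk1 was at 262, 262 and 261 FPKM in the Nlrp3-/- controls and 459, 452 and 464 FPKM with LPS+ATP. As deposited, Pgk1 lay higher in Nlrp3-/- than in wild-type controls and lower in Nlrp3-/- than in wild-type stimulated libraries. Its rises were 1.09 (SE 0.0276, adjusted p = 1.64e-11) and 0.81 (SE 0.0276, adjusted p = 3.02e-10). After median-ratio scaling the genotype difference of Pgk1 was 0.0028 in controls, not past the test, and -0.30 with LPS+ATP, past it. Eno1, the main enolase, stood at 127, 140.2 and 136 FPKM in the wild-type controls and 221, 243 and 232 FPKM with LPS+ATP. Eno1 was at 176, 185 and 173 FPKM in the Nlrp3-/- controls and 232, 244 and 234 FPKM with LPS+ATP. The rises were 0.78 (SE 0.0461, adjusted p = 2.77e-08) and 0.41 (SE 0.0461, adjusted p = 9.89e-06), and the stimulated libraries overlapped between genotypes as deposited. After median-ratio scaling the Nlrp3-/- level of Eno1 with LPS+ATP was lower, at -0.19 and past the test. Eno2, the neuronal enolase, was low, at 1.81 ± 0.175 FPKM in wild-type controls and 2.44 ± 0.414 FPKM with LPS+ATP, and rose by 0.29 (SE 0.087, adjusted p = 0.0111) and 0.23 (SE 0.087, adjusted p = 0.0328). Without wild-type LPS+ATP replicate 1, the highest of its group, the wild-type rise was 0.19. The rise of Eno2 in Nlrp3-/- BMDMs missed the test in 4 of the fits that left out 1 library, the lowest value being 0.18 without Nlrp3-/- LPS+ATP replicate 2 (adjusted p = 0.117).

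Pkm, the pyruvate kinase gene that also codes for the form PKM2, stood at 289.8, 324 and 315 FPKM in the wild-type controls and 459, 449.8 and 459 FPKM with LPS+ATP. Pkm was at 371, 384 and 374 FPKM in the Nlrp3-/- controls and 449.9, 458 and 460 FPKM with LPS+ATP. As deposited, the stimulated libraries of both genotypes had the same mean to 3 digits, 456 ± 5.34 FPKM and 456 ± 5.46 FPKM (SD, n = 3), while the controls differed. After median-ratio scaling Pkm was lower in Nlrp3-/- than in wild-type stimulated libraries, at -0.22 and past the test. The control difference was then 0.08 and not past it. As deposited, Pkm rose by 0.56 (SE 0.0368, adjusted p = 7.62e-08) and 0.28 (SE 0.0368, adjusted p = 3.84e-05). Its exons overlap those of Gm49759, which averaged 39.1 FPKM. Pgam1, a mutase, stood at 237, 236 and 225 FPKM in the wild-type controls and 296, 327 and 289 FPKM with LPS+ATP. Pgam1 was at 192, 190 and 214 FPKM in the Nlrp3-/- controls and 225, 224 and 229 FPKM with LPS+ATP. Pgam1 was lower in Nlrp3-/- than in wild-type libraries in both states, and rose by 0.38 (SE 0.0533, adjusted p = 4.8e-05) and 0.19 (SE 0.0533, adjusted p = 0.00817). Gapdh, which oxidises the triose and served the study as the reference gene of its RT-qPCR, stood at 261, 271 and 272 FPKM in the wild-type controls and 374, 380.3 and 269 FPKM with LPS+ATP. Gapdh was at 284, 288 and 291 FPKM in the Nlrp3-/- controls and 358, 374 and 341 FPKM with LPS+ATP. The third stimulated wild-type library was at the level of the controls. The rise was 0.33 (SE 0.104, adjusted p = 0.0134) in wild-type BMDMs, and 0.49 without that library, while it missed the test without wild-type LPS+ATP replicate 1 (adjusted p = 0.0585) or 2 (adjusted p = 0.0598). The rise in Nlrp3-/- BMDMs was 0.31 (SE 0.104, adjusted p = 0.0179), and without Nlrp3-/- LPS+ATP replicate 2 it missed the test (adjusted p = 0.0587).

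Several of these genes have near-identical copies elsewhere in the genome, among which the counting could have divided reads. A near copy was any other gene with a stretch of 95% identity over at least 20% of the member's longest transcript (GENCODE M21). Gapdh had 68 such copies, whose FPKM summed to 354 on average, or 113% of Gapdh itself. The single copy of Pgam1, Pgam1-ps2, averaged 234 FPKM beside 240.3 FPKM of Pgam1. The copies of Eno1 (3 genes) and Pgk1 (4 genes) held 58.2% and 31.7% of the member's level. The copies rose along with the members. The Gapdh copies summed to 272, 301 and 296 FPKM in wild-type controls and 405, 382 and 404 FPKM with LPS+ATP, and the third stimulated library, low for Gapdh itself, was not low for its copies. With the copies added to each member, the stimulation changes were 0.40 and 0.28 for Gapdh, 0.41 and 0.21 for Pgam1, 0.86 and 0.47 for Eno1 and 1.10 and 0.81 for Pgk1, in wild-type and Nlrp3-/- BMDMs. No stimulation call of a member changed, and no genotype or interaction call that had passed was lost. Genotype and interaction calls newly gained with the copies added were not listed.

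The lactate genes held both a strong rise and the deepest fall. Ldha encodes the subunit of lactate dehydrogenase that favours making lactate, and Ldhb the subunit that favours using it. Ldha stood at 149, 159 and 163 FPKM in the wild-type controls and 361, 333 and 343 FPKM with LPS+ATP. Ldha was at 177, 174 and 172 FPKM in the Nlrp3-/- controls and 304, 309 and 306 FPKM with LPS+ATP. It rose by 1.14 (SE 0.0379, adjusted p = 1.8e-10) and 0.81 (SE 0.0379, adjusted p = 5.09e-09). Ldhb stood at 11.3, 11.6 and 11.9 FPKM in the wild-type controls and 3.27, 2.81 and 3.22 FPKM with LPS+ATP. Ldhb was at 20.1, 18.2 and 17.0 FPKM in the Nlrp3-/- controls and 4.52, 4.40 and 3.54 FPKM with LPS+ATP. Every stimulated library lay below every control, and the falls were -1.62 (SE 0.0828, adjusted p = 7.7e-09) and -1.92 (SE 0.0828, adjusted p = 2.42e-09). Lactate leaves and enters cells through carriers of the Slc16a family. Slc16a3, which encodes the exporter MCT4, stood at 16.2, 17.2 and 18.1 FPKM in the wild-type controls and 61.6, 65.5 and 64.6 FPKM with LPS+ATP. Slc16a3 was at 25.5, 27.1 and 24.7 FPKM in the Nlrp3-/- controls and 53.7, 49.6 and 53.7 FPKM with LPS+ATP. The Nlrp3-/- libraries were above wild-type libraries without stimulation and below them with it, and the rises were 1.84 (SE 0.0513, adjusted p = 3.76e-11) and 0.99 (SE 0.0513, adjusted p = 1.17e-08). Slc16a1, which encodes MCT1, stood at 3.99, 3.92 and 4.51 FPKM in the wild-type controls and 7.86, 7.22 and 7.85 FPKM with LPS+ATP. Slc16a1 was at 8.44, 8.96 and 9.03 FPKM in the Nlrp3-/- controls and 13.5, 13.1 and 13.2 FPKM with LPS+ATP. It was higher in Nlrp3-/- BMDMs in both states and rose by 0.75 (SE 0.0524, adjusted p = 1.27e-07) and 0.54 (SE 0.0524, adjusted p = 2.92e-06).

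The pyruvate dehydrogenase kinases block the entry of pyruvate into mitochondria. Pdk1, a known HIF1 target, went down, from 9.38 ± 0.343 FPKM to 6.98 ± 0.0622 FPKM in wild-type and from 10.3 ± 0.651 FPKM to 7.89 ± 0.636 FPKM in Nlrp3-/- BMDMs. The changes, -0.38 (SE 0.0581, adjusted p = 0.000107) and -0.34 (SE 0.0581, adjusted p = 0.000267), were -0.10 and -0.07 after median-ratio scaling, when neither was past the test. Pdk3 stood at 6.15, 6.22 and 6.52 FPKM in the wild-type controls and 10.03, 10.7 and 9.53 FPKM with LPS+ATP. Pdk3 was at 10.7, 11.1 and 10.2 FPKM in the Nlrp3-/- controls and 13.2, 12.2 and 11.6 FPKM with LPS+ATP. Pdk3, which lies on the X chromosome as Pgk1 does, rose by 0.60 (SE 0.0556, adjusted p = 1.46e-06) and 0.19 (SE 0.0556, adjusted p = 0.00838).

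Hif1a and both prolyl hydroxylases were higher in Nlrp3-/- controls than in wild-type controls. Hif1a stood at 30.8, 26.6 and 26.6 FPKM in the wild-type controls and 52.5, 53.0 and 55.0 FPKM with LPS+ATP. Hif1a was at 65.9, 66.7 and 66.6 FPKM in the Nlrp3-/- controls and 78.2, 77.9 and 78.6 FPKM with LPS+ATP. All Nlrp3-/- controls lay above the stimulated wild-type libraries. LPS+ATP raised Hif1a by 0.91 (SE 0.0489, adjusted p = 1.19e-08) in wild-type and 0.23 (SE 0.0489, adjusted p = 0.00119) in Nlrp3-/- BMDMs. Egln3, the hydroxylase most induced by HIF1 in many cells, stood at 4.55, 5.04 and 4.88 FPKM in the wild-type controls and 25.9, 26.2 and 27.2 FPKM with LPS+ATP. Egln3 was at 8.55, 9.93 and 8.65 FPKM in the Nlrp3-/- controls and 31.2, 33.1 and 33.9 FPKM with LPS+ATP. It rose by 2.24 (SE 0.0572, adjusted p = 1.8e-11) and 1.75 (SE 0.0572, adjusted p = 2.03e-10), the second-largest rise of the members in wild-type BMDMs. Egln1, the main hydroxylase of HIF1 in oxygen, stood at 14.0, 11.5 and 13.2 FPKM in the wild-type controls and 18.4, 17.2 and 19.6 FPKM with LPS+ATP. Egln1 was at 19.4, 19.8 and 19.97 FPKM in the Nlrp3-/- controls and 20.7, 20.5 and 22.6 FPKM with LPS+ATP. It rose by 0.48 (SE 0.0675, adjusted p = 4.82e-05) in wild-type BMDMs, and the change in Nlrp3-/- BMDMs was 0.10 (SE 0.0675, adjusted p = 0.184). After median-ratio scaling the latter was 0.39 and past the test. Hif1a mRNA does not measure HIF1 protein, which is set mainly by degradation.

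The 5 HIF1 targets outside glycolysis had unlike responses. Bnip3, a receptor that marks mitochondria for autophagy, stood at 15.5, 15.1 and 15.3 FPKM in the wild-type controls and 62.5, 60.6 and 68.5 FPKM with LPS+ATP. Bnip3 was at 31.8, 28.6 and 31.6 FPKM in the Nlrp3-/- controls and 59.5, 59.3 and 52.2 FPKM with LPS+ATP. It rose by 1.99 (SE 0.0622, adjusted p = 9.93e-11) and 0.87 (SE 0.0622, adjusted p = 1.95e-07). P4ha1, a subunit of the enzyme that hydroxylates collagen, stood at 27.3, 23.8 and 26.3 FPKM in the wild-type controls and 80.5, 84.2 and 80.3 FPKM with LPS+ATP. P4ha1 was at 49.4, 48.8 and 48.3 FPKM in the Nlrp3-/- controls and 100.2, 93.4 and 96.1 FPKM with LPS+ATP. It rose by 1.63 (SE 0.0473, adjusted p = 5.3e-11) and 0.97 (SE 0.0473, adjusted p = 7.22e-09). Vegfa, the growth factor of blood vessels, stood at 14.9, 14.1 and 14.0 FPKM in the wild-type controls and 23.0, 20.6 and 22.1 FPKM with LPS+ATP. Vegfa was at 18.6, 18.1 and 19.5 FPKM in the Nlrp3-/- controls and 45.6, 42.5 and 42.6 FPKM with LPS+ATP. Vegfa rose more in Nlrp3-/- BMDMs, by 1.18 (SE 0.0493, adjusted p = 1.84e-09) against 0.58 (SE 0.0493, adjusted p = 7.4e-07). Ndrg1, a stress gene that hypoxia induces in many cells, stood at 16.3, 16.6 and 18.2 FPKM in the wild-type controls and 9.11, 9.25 and 9.87 FPKM with LPS+ATP. Ndrg1 was at 16.8, 15.5 and 16.8 FPKM in the Nlrp3-/- controls and 16.5, 16.4 and 16.4 FPKM with LPS+ATP. Ndrg1 fell in wild-type BMDMs, with a log2 fold change of -0.79 (SE 0.0496, adjusted p = 4.7e-08), and was at 0.01 (SE 0.0496, adjusted p = 0.898) in Nlrp3-/- BMDMs, or 0.29 and past the test after median-ratio scaling. Mif, a cytokine, rose from 106 ± 6.95 FPKM to 167 ± 10.8 FPKM in wild-type and from 165 ± 0.502 FPKM to 228 ± 10.5 FPKM in Nlrp3-/- BMDMs, by 0.65 (SE 0.0556, adjusted p = 7.3e-07) and 0.47 (SE 0.0556, adjusted p = 1.5e-05).

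Whether the response to LPS+ATP differed between genotypes was tested as the interaction, the log2 fold change in Nlrp3-/- minus that in wild-type BMDMs. It was below 0 and past the test for 14 of the 34 members and above 0 for 2, against 13% and 14.7% of all tested genes. With a size of at least 1 it was below 0 for 1 member, Bnip3, and no value above 0 exceeded that of Ndrg1, against 1.43% and 0.721%. All 14 members rose with LPS+ATP in wild-type BMDMs, and 13 of them, all but Egln1, rose in Nlrp3-/- BMDMs too, so a value below 0 stood for a smaller rise. Bnip3 led at -1.12 (SE 0.088, adjusted p = 5.71e-06), before Slc16a3 at -0.84 (SE 0.0726, adjusted p = 1.05e-05), Slc2a1 at -0.71 (SE 0.0629, adjusted p = 1.23e-05), Hif1a at -0.68 (SE 0.0691, adjusted p = 3.49e-05) and P4ha1 at -0.66 (SE 0.0669, adjusted p = 3.43e-05). Pfkl, Egln3, Pfkp, Pdk3, Egln1, Eno1, Ldha, Pgk1 and Pkm lay between -0.58 and -0.28. Vegfa at 0.60 (SE 0.0697, adjusted p = 9.19e-05) and Ndrg1 at 0.80 (SE 0.0701, adjusted p = 1.17e-05) were the 2 above 0. The same 16 members passed after median-ratio scaling, which moved the median of all genes by only -0.01, and Slc16a1, at -0.22, was then also below 0. Under that scaling 13.6% of all tested genes were called below 0 and 14.3% above 0. None of these 16 calls was lost when any 1 library was left out.

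This test and the genotype comparisons share libraries, so their values are given side by side. Nlrp3-/- over wild-type, Hif1a was at 1.22 without and 0.54 with LPS+ATP. Bnip3 was at 0.96 and -0.16, Slc2a1 at 0.67 and -0.04, and Slc16a3 at 0.56 and -0.28. Ndrg1 was at -0.06 and 0.74. These values are from FPKM as deposited, where Bnip3 and Slc2a1 did not pass the test with LPS+ATP. After median-ratio scaling Bnip3 and Slc2a1 were lower with LPS+ATP, at -0.38 and -0.26, both past the test. Hif1a and Ndrg1 then stayed higher with LPS+ATP and Slc16a3 lower, all past the test. Ndrg1 without stimulation was then at -0.24 and past the test, which it was not as deposited. Marker lists had interactions in both directions. The interaction was below 0 for 6 of 8 neutrophil markers, 5 of 8 fibroblast markers, 8 of 10 LPS-induced genes and all 4 tested erythroid markers, with medians of -0.84, -0.32, -1.35 and -1.02. It was above 0 for 5 of 6 cell cycle genes and below 0 for 1, with a median of 0.85. Of 8 macrophage markers it was above 0 for 2 and below 0 for 3, with a median of -0.09. Their part in the differences of the members was not tested, and in bulk RNA fewer cells of a type and less RNA per cell cannot be told apart.

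**Figure D3:**
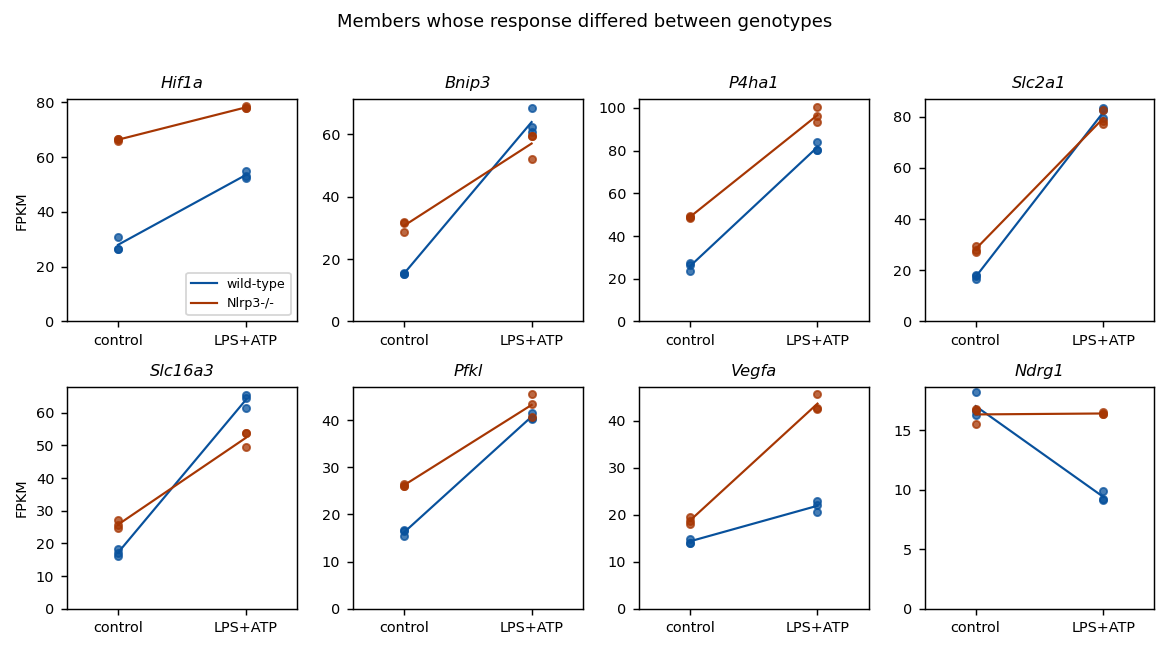
FPKM of 8 members by library (points) with group means joined by lines, wild-type in blue and Nlrp3-/- in brown, each axis starting at 0. Hif1a, Bnip3, P4ha1, Slc2a1, Slc16a3 and Pfkl start higher in Nlrp3-/- controls and rise less, Vegfa rises more, and Ndrg1 falls in the wild-type libraries while the Nlrp3-/- means differ little.

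The genotype comparisons, Nlrp3-/- over wild-type in the same state, depended on how libraries were scaled. Without stimulation, 21 members were higher and 3 lower in Nlrp3-/- BMDMs, against 33.3% and 14.5% of all tested genes. The DEGs were 1 higher member, Hif1a, while the lowest member, Hk3, was at -0.76, against 6.02% and 0.689% of all genes. Without Nlrp3-/- control replicate 2 there were 2 higher DEGs. With LPS+ATP, 15 members were higher and 7 lower, against 35.9% and 12.6% of all genes. No member reached a log2 size of 1 there, the nearest being Vegfa at 0.96, and DEGs made up 4.48% higher and 0.57% lower of all genes. Median-ratio scaling moved the median of all genes by -0.15 without stimulation and -0.17 with LPS+ATP. It left 14 higher and 5 lower members without stimulation, against 18.5% and 30.1% of all genes, and 5 higher and 15 lower members with LPS+ATP, against 21.5% and 29.7%. The sign differed between scalings for 10 members without stimulation and for 8 with LPS+ATP.

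Calls under both scalings were kept by 17 members without stimulation and 12 with LPS+ATP. The share of all tested genes that kept a call was not counted, so these counts do not set the members apart. Without stimulation, 14 of these were higher in Nlrp3-/- BMDMs, led by Hif1a at 1.22 (SE 0.0489, adjusted p = 4.02e-09), Bnip3 at 0.96 (SE 0.0622, adjusted p = 2.05e-07), Slc16a1 at 0.93 (SE 0.0524, adjusted p = 6.15e-08) and P4ha1 at 0.90 (SE 0.0473, adjusted p = 3.63e-08). The others were Egln3, Pdk3, Slc2a1, Pfkl, Mif, Ldhb, Egln1, Slc16a3, Eno1 and Vegfa, from 0.78 down to 0.36. Hk3 at -0.76 (SE 0.0285, adjusted p = 2.45e-09), Slc2a6 at -0.42 (SE 0.0585, adjusted p = 0.000126) and Pgam1 at -0.23 (SE 0.0533, adjusted p = 0.00451) were lower. With LPS+ATP, Vegfa at 0.96 (SE 0.0493, adjusted p = 4.03e-08), Ndrg1 at 0.74 (SE 0.0496, adjusted p = 3.12e-07), Slc16a1 at 0.72 (SE 0.0524, adjusted p = 6.5e-07), Hif1a at 0.54 (SE 0.0489, adjusted p = 3.79e-06) and Mif at 0.45 (SE 0.0556, adjusted p = 4.76e-05) were higher. Hk3 at -0.85 (SE 0.0285, adjusted p = 1.42e-09), Slc2a6 at -0.49 (SE 0.0585, adjusted p = 3.58e-05), Pfkp at -0.48 (SE 0.0572, adjusted p = 3.51e-05), Pgam1 at -0.42 (SE 0.0533, adjusted p = 5.37e-05), Slc16a3 at -0.28 (SE 0.0513, adjusted p = 0.000782), Ldha at -0.17 (SE 0.0379, adjusted p = 0.00296) and Pgk1 at -0.08 (SE 0.0276, adjusted p = 0.0335) were lower. The Pgk1 difference missed the test in 4 of the fits that left out 1 library, and was -0.07 without wild-type LPS+ATP replicate 2 (adjusted p = 0.107). After median-ratio scaling Hk3 was at -1.06, a DEG. Hif1a, Mif, Slc16a1 and Vegfa were thus higher, and Hk3, Pgam1 and Slc2a6 lower, in both states under both scalings. Sex, supplier, and the fibroblast and neutrophil marker sums given above moved with genotype, and their part was not tested. The sums of LPS-induced genes also differed, higher in Nlrp3-/- than in wild-type controls and lower with LPS+ATP, and their part was not tested either. Pgam1 kept its lower level with Pgam1-ps2 added, at -0.22 without and -0.41 with LPS+ATP.

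**Figure D4:**
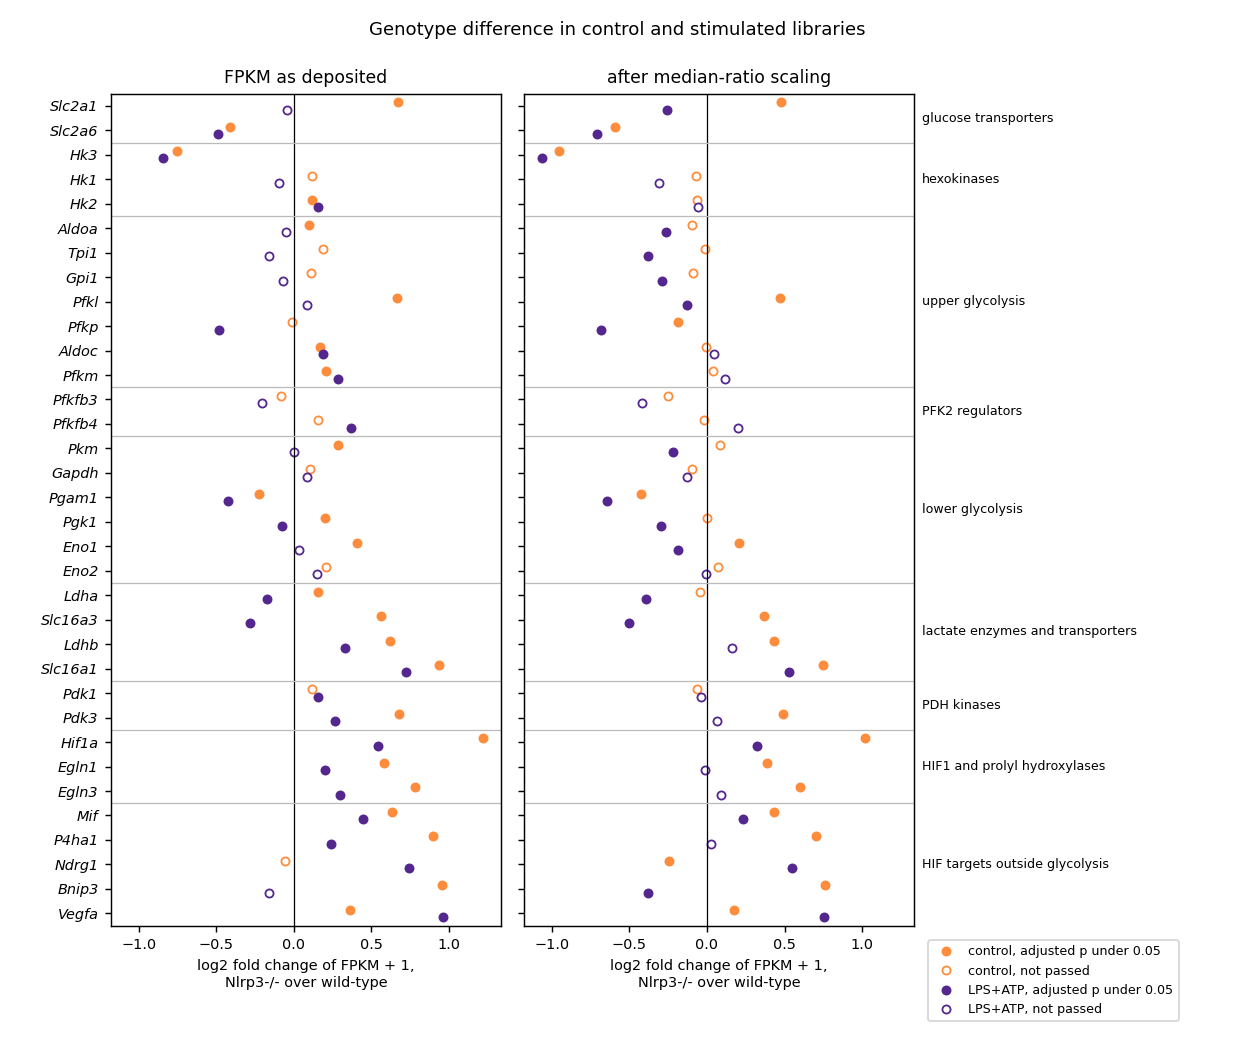
log2 fold changes of FPKM + 1 for Nlrp3-/- over wild-type BMDMs in control (orange) and LPS+ATP (purple) libraries, from FPKM as deposited (left) and after median-ratio scaling (right), with filled points for adjusted p under 0.05. The points move left as a whole in the right panel, and the order of the 2 states within most genes stays.

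Ratios between isoforms or family members within a library depend little on scaling. For 12 pairs, log2((FPKM + 1)/(FPKM + 1)) was compared by exact two-sided permutation tests within the strata of the other factor, with p adjusted over 24 tests and 0.008 as the smallest adjusted p. All 12 ratios passed the test for LPS+ATP. Pairs of other genes were not tested, so the share of such pairs that would pass is unknown. The largest shift was that of Ldhb to Ldha. Its FPKM ratio went from 0.0741 ± 0.00187 to 0.00896 ± 0.00048 (SD, n = 3) in wild-type and from 0.106 ± 0.00758 to 0.0136 ± 0.00175 in Nlrp3-/- libraries, a log2 change of -2.74 over both genotypes (adjusted p = 0.008, exact permutation test). Pfkfb4 to Pfkfb3 shifted by -2.54, Aldoc to Aldoa by -1.76 and Pfkm to Pfkl by -1.38 (adjusted p = 0.008 each, exact permutation tests). Egln3 to Egln1 shifted by 1.70, from 0.378 ± 0.0562 to 1.44 ± 0.0716 in wild-type and from 0.459 ± 0.0375 to 1.54 ± 0.066 in Nlrp3-/- libraries (adjusted p = 0.008, exact permutation test), so that Egln3 passed Egln1 in all 6 stimulated libraries. Slc2a6 to Slc2a1 shifted by 0.96, Pdk3 to Pdk1 by 0.76, Slc16a1 to Slc16a3 by -0.77, Pfkp to Pfkl by -0.51 and Eno2 to Eno1 by -0.34 (adjusted p = 0.008 each, exact permutation tests). Eno2 averaged only 2.33 FPKM, where the added 1 weighs on the ratio. Without it, the Eno2 to Eno1 ratios of the 2 states overlapped in both genotypes. Their means went from 0.0135 to 0.0106 in wild-type and from 0.0126 to 0.0118 in Nlrp3-/- libraries. Hk2 to Hk1 and Hk3 to Hk1 shifted by 0.51 and 0.44 (adjusted p = 0.0141 each, exact permutation tests).

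Averaged over both states, 7 of the 12 ratios differed between genotypes, again with no other pairs tested beside them. Hk3 to Hk1 was 7.03 ± 0.737 in wild-type and 3.79 ± 0.413 in Nlrp3-/- controls, a log2 difference of -0.81 over both states (adjusted p = 0.008, exact permutation test). Slc2a6 to Slc2a1 was 0.694 ± 0.0227 and 0.312 ± 0.0283 in these controls, a difference of -0.77. Slc16a1 to Slc16a3 differed by 0.69, Pfkp to Pfkl by -0.62 and Ldhb to Ldha by 0.48 (adjusted p = 0.008 each, exact permutation tests). Pdk3 to Pdk1 differed by 0.34 and Aldoc to Aldoa by 0.15 (adjusted p = 0.019 each, exact permutation tests), and the latter missed the test in 6 of the fits that left out 1 library, with values down to 0.13 without Nlrp3-/- LPS+ATP replicate 2. The ratios of Hk2 to Hk1, Pfkm to Pfkl, Pfkfb4 to Pfkfb3, Eno2 to Eno1 and Egln3 to Egln1 missed the test, with adjusted p from 0.054 to 0.62 in exact permutation tests. Because this test averages the states, it cannot show differences of opposite sign. Pfkm to Pfkl differed by -0.46 in controls and 0.20 with LPS+ATP, and Eno2 to Eno1 by -0.20 and 0.12.

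**Figure D5:**
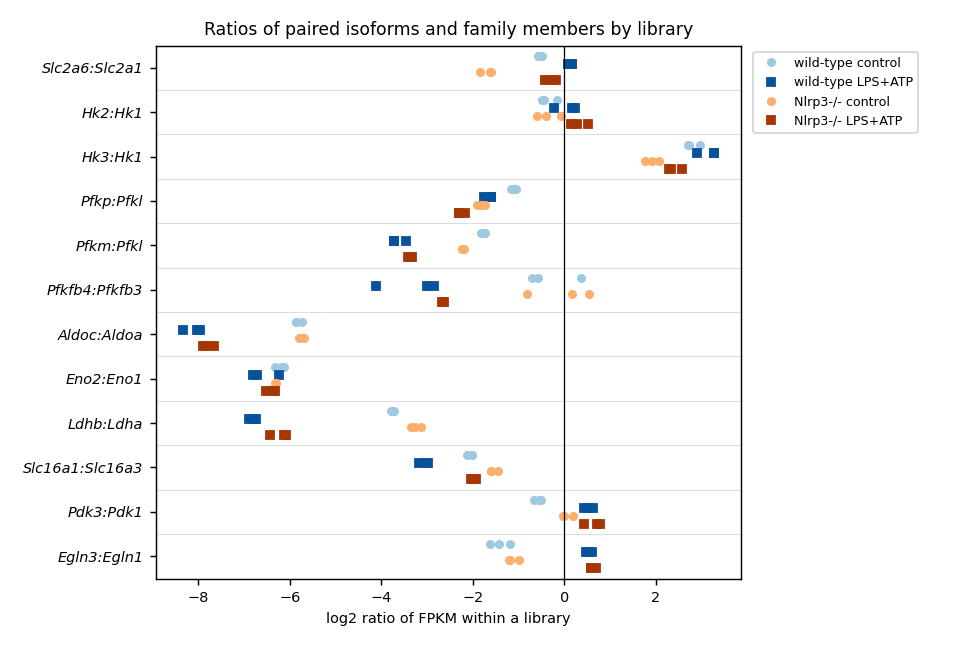
log2 ratio of FPKM within each library for 12 pairs, with circles for control and squares for LPS+ATP libraries, light and dark blue for wild-type, orange and brown for Nlrp3-/-. For Ldhb:Ldha, Aldoc:Aldoa, Pfkm:Pfkl and Pfkfb4:Pfkfb3 all squares lie left of all circles, and for Egln3:Egln1 all lie right, past the line of equal levels at 0.

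Other genes of these pathways were counted in the same way. Of 27 tested genes of glucose and pyruvate handling outside the 34, 5 rose and 16 fell in wild-type BMDMs, beside 23.3% and 53.1% of all tested genes, with a median of -0.48. In the Nlrp3-/- samples 4 rose and 19 fell, beside 20.6% and 53.8%, with a median of -0.59. After median-ratio scaling 10 rose and 13 fell in wild-type BMDMs, beside 34.9% and 36.3% of all genes, with a median of -0.24. Under it 8 rose and 16 fell in Nlrp3-/- BMDMs, beside 32.9% and 32.6%, with a median of -0.37. DEGs with the largest rises and falls are named. Pcx, which feeds pyruvate into the citric acid cycle, rose from 1.74 to 12.1 FPKM in wild-type BMDMs (log2 fold change 2.26) and from 3.67 to 15.5 FPKM in Nlrp3-/- BMDMs (1.82). Gpd1, which links triose phosphate to lipid glycerol, fell from 3.69 to 0.154 FPKM (-2.02) and from 7.13 to 0.255 FPKM (-2.70). Pdp1, the phosphatase that reverses the action of the Pdk kinases, fell by 1.47 and by 1.38 on the log2 scale, and Slc2a8, another glucose carrier, was at -1.49 in wild-type BMDMs. Pdk4 was at -1.58 in Nlrp3-/- BMDMs.

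Of 34 other tested genes of the HIF pathway, 19 rose and 12 fell in wild-type BMDMs, beside the same 23.3% and 53.1% of all genes, with a median of 0.64. In the Nlrp3-/- samples 16 rose and 12 fell, beside 20.6% and 53.8%, with a median of 0.03. After median-ratio scaling 20 rose and 8 fell in each genotype, with medians of 0.91 and 0.29. The shares of all genes were then 34.9% and 36.3% in wild-type and 32.9% and 32.6% in Nlrp3-/- BMDMs. Hmox1, which degrades heme, rose from 435 to 4851 FPKM (3.48) and from 414 to 3195 FPKM (2.95). Ero1l, an oxidase of the endoplasmic reticulum, rose from 13.3 to 86.7 FPKM (2.62) and from 23.8 to 75.98 FPKM (1.63). Gbe1, the glycogen branching enzyme, was at 1.55 in wild-type and Adm, which encodes adrenomedullin, at 1.32 in Nlrp3-/- BMDMs. Cxcr4, a chemokine receptor, fell from 65.7 to 3.61 FPKM (-3.86) and from 58.1 to 6.24 FPKM (-3.03). Tfrc, the transferrin receptor, was at -1.49 and -1.89. The interaction of this list was below 0 for 18 of 34 genes and above 0 for 4, with a median of -0.31, beside 13% and 14.7% of all genes.

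Genes often used as references were counted too, since any value set relative to one of them depends on its level. Of 12 such genes, 3 rose, 8 fell and 1 did not pass in wild-type BMDMs, beside 23.3% and 53.1% of all tested genes, and Hprt was at -1.31. In the Nlrp3-/- samples 3 rose and 7 fell, beside 20.6% and 53.8%. With median-ratio scaling 3 rose and 7 fell in wild-type BMDMs, beside 34.9% and 36.3% of all genes. In Nlrp3-/- BMDMs 3 rose and 6 fell, beside 32.9% and 32.6%. Gapdh, at 0.33 as deposited, was at 0.65 under that scaling, and in the genotype comparison it missed the test under both scalings and in both states.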

How the data were processed

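Total RNA of 12 mouse BMDM samples was sequenced after Trizol extraction and Illumina TruSeq library preparation. The authors deposited FPKM per gene and sample for 55335 genes in 1 table. Per the submitters' processing notes the genome build was GRCm39 and DESeq2 1.24.0 was used. The aligner, the counter and the strand setting are not given in the sources used here. Read counts were not analysed here, so depth in reads is unknown. No column was left unassigned, and the replicate numbers came from the labels.

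Genes of at least 1 FPKM in at least 3 libraries (12622) entered a limma 3.58.1 fit (R 4.3.3) of log2(FPKM + 1) on 4 group means, with a mean-variance trend and 8 residual degrees of freedom. Adjusted p-values are Benjamini-Hochberg values over all tested genes. The 34 members, the other gene and marker lists and the tests were chosen with earlier results of these data known. All 34 members were described, and of the other pathway genes those DEGs with the largest rises and falls were named, except for an item not reported here. Ratios within pairs were compared by exact permutation within strata (400 permutations, smallest p 0.005). Near copies were found with blastn 2.17.0+. The promoters came from RefSeq on GRCm38.p6, an earlier build than that of the FPKM, and served for sequence only. Fits were tested on simulated data. The alternatives were another pseudocount (0.1), TPM, upper-quartile and median-ratio scaling, no filter or a filter at 5 FPKM, no trend, the compared groups alone, a replicate block and leaving out each library. Adding near copies to the members was chosen after seeing the data.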

Additional observations from a re-analysis of the deposited data

Results flagged for a closer look

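The response to LPS+ATP differed between wild-type and Nlrp3-/- BMDMs for 16 members by the interaction term of the limma fit. It was smaller in Nlrp3-/- BMDMs for the mitophagy receptor Bnip3, at -1.12 (SE 0.088, adjusted p = 5.71e-06), the lactate exporter gene Slc16a3, at -0.84 (SE 0.0726, adjusted p = 1.05e-05), the glucose carrier gene Slc2a1, at -0.71 (SE 0.0629, adjusted p = 1.23e-05), Hif1a, at -0.68 (SE 0.0691, adjusted p = 3.49e-05), and P4ha1, at -0.66 (SE 0.0669, adjusted p = 3.43e-05). Smaller differences of the same direction were those of Pfkl at -0.58, Egln3 at -0.49, Pfkp at -0.47, Pdk3 at -0.41, Egln1 at -0.38, Eno1 at -0.37, Ldha at -0.33, Pgk1 at -0.28 and Pkm at -0.28, with adjusted p from 4.3e-05 to 0.0125. The difference had the opposite sign for Vegfa, at 0.60 (SE 0.0697, adjusted p = 9.19e-05), and for Ndrg1, at 0.80 (SE 0.0701, adjusted p = 1.17e-05). Genotype, sex and supplier cannot be told apart in these libraries. Groups of 3 libraries were too small to be screened for single outlying libraries.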

How the results depend on the processing

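Over the alternatives, 2932 values of single members or pairs kept their direction and side of the threshold, 128 were no longer past it, 8 passed it newly and 21 changed sign. These were all stimulation changes of members, and those genotype, interaction and pair values that passed as deposited. Genotype and interaction values that had not passed were left out, so new passes and sign changes among them are not in these totals. Of the counts of members or of pairs past the test, 445 stayed within 1.5 times and 17 did not. The scalings moved most. With upper-quartile or median-ratio scaling, falls in Nlrp3-/- BMDMs dropped from 5 to 2 and 2, and DEGs that rose there went from 7 to 12 and 12. Under the same scalings, members higher in Nlrp3-/- BMDMs with LPS+ATP went from 15 to 5 and 5, members lower from 7 to 16 and 15, and lower DEGs from 0 to 1 and 1. Without stimulation, lower members went from 3 to 6 and 5. Higher DEGs without stimulation were 1, but 2 with the pseudocount of 0.1, 2 with TPM and 0 with upper-quartile scaling, and from 1 to 2 on leaving out 1 library (2 without Nlrp3-/- control replicate 2). With TPM, 1 member was a higher DEG with LPS+ATP in place of 0. The cause was not tested.

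Among members past the test as deposited, genotype values that changed sign with LPS+ATP, under upper-quartile and median-ratio scaling, were those of Hk2 (-0.081 and -0.055), Pdk1 (-0.063 and -0.040), Egln1 (-0.035 and -0.010) and, with upper-quartile scaling, P4ha1 (-0.0026). Without stimulation those of such members were Hk2 (-0.092 and -0.067), Aldoa (-0.13 and -0.099), Ldha (-0.069 and -0.043), Aldoc (-0.032 and -0.0089) and, with upper-quartile scaling, Pgk1 (-0.024). The other members whose sign differed under median-ratio scaling, out of 8 with and 10 without LPS+ATP, had not passed as deposited. On leaving out 1 library, the stimulation change in Nlrp3-/- BMDMs ran from -0.059 to 0.13 for Gpi1 and from -0.028 to 0.025 for Ndrg1.

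Replicate numbers gave no pairing, since the correlations of deviations between same-numbered libraries ran from -0.057 to 0.053. With the number as a replicate block, Aldoa (0.10, adjusted p = 0.0707) and Aldoc (0.17, adjusted p = 0.0538) no longer passed in the genotype comparison without stimulation. No stimulation call of a member changed, and no other genotype or interaction call that had passed was lost. Genotype and interaction calls newly gained with the block were not listed. The depth in reads is unknown, and precision rests on 3 libraries a group.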
